A study of Mus musculus with 12 samples.

Results

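Axon guidance genes were followed through 60 days after stroke in RNA sequencing libraries of astrocytes sorted from mouse cerebral cortex. Members were all genes of the count table whose symbol begins with Sema and a number, Plxn, Epha, Ephb, Efna, Efnb or Unc5, or is Slit, Robo or Ntn with a number, Nrp1 or Nrp2. Of 15774 genes in the table, 70 met this rule. They comprised 7 class 3 semaphorins, 13 other semaphorins, 9 plexins, 2 neuropilins, 8 ephrins, 14 Eph receptors, 3 Slits, 4 Robo receptors, 4 netrins, 4 Unc5 receptors and 2 further genes. Those 2, Unc50 and Unc5cl, met the rule but are not netrin receptors, which left 68 guidance genes (35 ligands and 33 receptors). All 70 passed the filter on low counts and were tested, and all 70 matched 1 protein-coding gene of the GENCODE annotation.

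All mice were wild-type C57BL/6J. Mice examined on days 1, 3, 7, 21 and 60 after stroke had the distal middle cerebral artery tied off permanently and both common carotid arteries closed for 7 min. Sham mice received only a lesion of the skull surface. Astrocytes were isolated by fluorescence-activated cell sorting, and each of the 6 groups had 2 libraries. The surface marker of the sort, the time at which sham cells were collected, and whether a library came from 1 animal or a pool were not stated, so p-values measure only the spread between these samples, which may be technical.

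Guidance molecules steer growing axons by attraction or repulsion, and many also act on blood vessels, immune cells and glia. Secreted class 3 semaphorins bind neuropilins, which signal through plexins, whereas most membrane-bound semaphorins bind plexins directly. Ephrins, held in the membrane by a lipid anchor (A class) or a transmembrane segment (B class), bind Eph receptor tyrosine kinases on neighbouring cells. Slits bind Robo receptors, and netrins bind Dcc and Unc5 receptors. In the injured central nervous system, semaphorin 3A from meningeal fibroblast-like cells and ephrins and Eph receptors on reactive astrocytes have been studied as barriers to axon regrowth.

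Library totals were 13006008 to 16575045 counts in replicate 1 and 97056596 to 156128922 counts in replicate 2 of the groups. Lists of cell type markers were summed as a percent of all counts, and in the astrocyte, fibroblast, neuron and endothelial lists no marker was at 0 in both libraries of a group. The astrocyte list held 0.184 and 0.101% of counts on day 7 and 0.832 and 0.66% in sham cells, with 6 of 10 markers lower and 2 of 10 higher on day 7. The fibroblast list held 8.23 and 20.0% on day 7 and 2.07 and 2.77% on day 60, against 0.00735 and 0.00838% in sham cells, and 9 of its 10 markers were higher than sham at every day. The neuron list held 0.0269 and 0.0142% on day 7 and 0.128 and 0.094% on day 60, against 0.848 and 0.988% in sham cells, with 9 of its 10 markers lower on day 1 and 10 of 10 at each later day. The endothelial list held 0.827 and 0.385% on day 1, against 0.121 and 0.113% in sham cells, with 6 of 10 markers higher. In such bulk samples fewer cells of a type and less RNA per cell cannot be told apart.

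Promoters of members that moved are shown here because several members rose or fell together. RefSeq promoters of the GRCm38.p6 build, 250 bases ending just before a transcription start, were found for 61 of the 70 members (77 promoters). The 4 motifs searched on both strands were the Sp1-type GC box GGGCGG, the AP-1 motif TGANTCA, the STAT motif TTCNNNGAA and the hypoxia motif ACGTG. The GC box was in 71.4% of member promoters, beside 53.6% of the promoters of genes tested and 32.7% of all 32851 promoters of the table. It was in 67.6% of promoters of members that were only ever higher than sham and 68% of those only ever lower. Those 2 sets come from the edgeR test given below, without the replicate number as a block. TGANTCA was in 3.9% of member promoters and 4.9% of those of genes tested, TTCNNNGAA in 2.6% and 6.14%, and ACGTG in 15.6% and 20.3%. The promoters below belong to the 2 receptors that led the lasting increase and the 2 that led on day 1, with matches in capitals and each strand read 5′ to 3′. A match is a run of letters and not a bound site. RefSeq and GENCODE starts differ, and the Nrp1 window lies within the GENCODE bounds of the gene and the Robo4 window overlaps them.
Nrp1 promoter, chr8:128358823-128359072, plus strand: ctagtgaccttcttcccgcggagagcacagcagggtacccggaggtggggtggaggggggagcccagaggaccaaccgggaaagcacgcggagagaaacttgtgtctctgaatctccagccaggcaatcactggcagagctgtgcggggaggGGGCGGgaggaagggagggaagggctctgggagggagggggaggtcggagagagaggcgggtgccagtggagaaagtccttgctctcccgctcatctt
Epha3 promoter, chr16:63864176-63864425, minus strand: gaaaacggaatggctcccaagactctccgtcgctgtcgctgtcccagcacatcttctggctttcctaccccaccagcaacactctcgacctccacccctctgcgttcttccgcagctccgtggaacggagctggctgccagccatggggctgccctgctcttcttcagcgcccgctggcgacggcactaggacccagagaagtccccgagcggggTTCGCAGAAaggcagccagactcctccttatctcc
Robo4 promoter, chr9:37401722-37401971, plus strand: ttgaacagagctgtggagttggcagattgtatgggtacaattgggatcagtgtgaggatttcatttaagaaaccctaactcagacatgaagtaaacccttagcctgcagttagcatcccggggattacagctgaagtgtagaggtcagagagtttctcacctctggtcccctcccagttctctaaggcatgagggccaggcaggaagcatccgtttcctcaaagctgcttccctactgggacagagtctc
Epha2 promoter, chr4:141300971-141301220, plus strand: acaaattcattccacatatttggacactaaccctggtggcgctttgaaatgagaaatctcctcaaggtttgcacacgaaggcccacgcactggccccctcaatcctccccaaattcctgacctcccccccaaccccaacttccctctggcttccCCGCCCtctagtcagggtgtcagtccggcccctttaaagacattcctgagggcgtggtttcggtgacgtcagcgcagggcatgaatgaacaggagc
The Nrp1 promoter held 1 GC box and the Epha2 promoter 1 on the opposite strand, the Epha3 promoter held 1 STAT motif, and the Robo4 promoter held none of the 4 motifs.

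More members differed from sham on day 7 than at any other day. On day 7, 25 of 70 were higher and 14 lower, beside 23.2% and 19.8% of all 15635 genes tested. On day 1, 13 members were higher and 12 lower (all genes 16.7% and 13.9%). Day 3 had 12 higher and 11 lower (18% and 14.2%), day 21 had 17 and 5 (17.8% and 15.4%), and day 60 had 12 and 9 (16.8% and 14.8%). In this fit the shares of members on days 1, 3 and 60 were near those of all genes. On days 7 and 21 a larger share of members than of all genes was higher, and on day 21 a smaller share was lower; these shares were not tested. A call is an adjusted p under 0.05 from edgeR's quasi-likelihood F test. The median log2 fold change (log2FC) of the 70 members was -0.60 on day 1, -0.01 on day 3, 0.63 on day 7, 0.63 on day 21 and 0.08 on day 60, beside 0.06, 0.16, 0.13, 0.07 and 0.01 over all genes. Unc50 was among the higher calls at each day. DESeq2 moved the balance at 3 days, to 14 higher and 23 lower on day 1 (all genes 19% and 19.8%), 13 and 20 on day 3 (20.3% and 19.3%), and 18 and 12 on day 21 (19.6% and 21.6%). In that fit a larger share of members than of all genes was lower on days 1 and 3. With the replicate number as a block, 21 members were lower on day 1 (all genes 19.8%) and 9 on day 21 (21.8%). The block added Efnb2, Plxnb2, Sema3a and Unc5b (higher on day 1), Efna5, Epha4, Epha6, Ephb1, Ephb2, Ntn3, Plxnc1, Sema6b and Unc5d (lower on day 1), Ephb4 and Plxna2 (higher on day 3), Epha4, Sema4a, Sema6c, Slit1 and Slit3 (lower on day 3), Epha2, Ephb3, Plxnd1, Robo2 and Sema6a (higher on day 7), Sema4f and Sema5b (lower on day 7), Epha1, Ephb2 and Slit3 (higher on day 21), Epha4, Plxnb1, Unc5a and Unc5d (lower on day 21), Epha1, Sema3b, Slit2 and Slit3 (higher on day 60) and Epha4 and Epha6 (lower on day 60), with an adjusted p of 0.00885 to 0.0483.

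**Figure D1:**
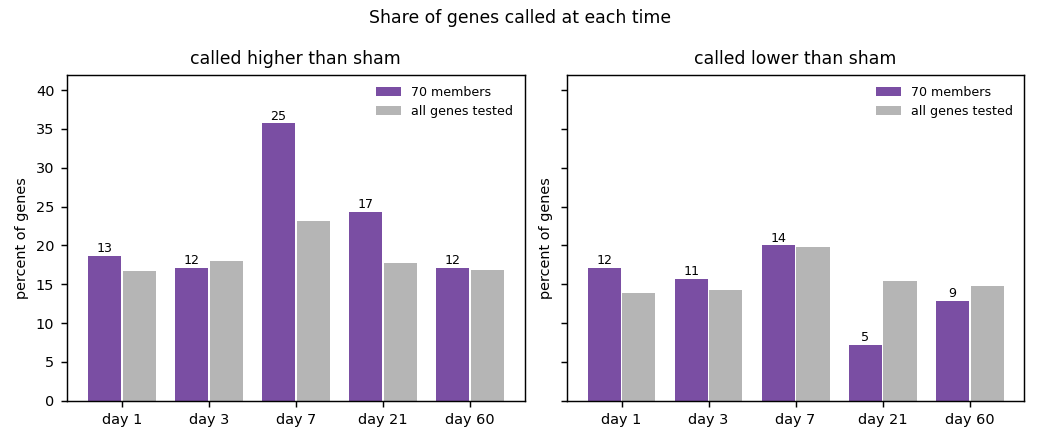
Percent of the 70 members and of all 15635 genes tested that were called higher or lower than sham at each day after stroke (adjusted p under 0.05). On day 7 the share of members called higher was 35.7%, beside 23.2% of all genes.

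Single libraries bore on these counts. On day 1, the 13 higher became 5 without sham replicate 1 or day 1 replicate 1 and 8 without sham replicate 2, and the 12 lower became 3 without sham replicate 2 and 2 without day 1 replicate 1. On day 3, the 12 higher became 5 without sham replicate 1 or sham replicate 2, and the 11 lower became 6 without sham replicate 1 and 4 without sham replicate 2. On day 7, the 25 higher became 15 without sham replicate 1 and 16 without day 7 replicate 1 or day 7 replicate 2, and the 14 lower became 8 without day 7 replicate 1 or day 7 replicate 2. On day 21, the 17 higher became 8 without sham replicate 1 and 9 without day 21 replicate 1 or day 21 replicate 2, and the 5 lower became 2 without sham replicate 2 or day 21 replicate 1 and 8 without day 1 replicate 1 or day 1 replicate 2 and 1 without day 21 replicate 2. On day 60, the 9 lower became 4 without sham replicate 2 or day 60 replicate 2. Where lower members are given for a fit, the share of all genes called lower moved in the same direction as their count. The share of all genes called higher fell in every fit named for higher members. On day 7 it was 15% without sham replicate 1, beside 15 of 70 members. On day 21 it was 10.7% without sham replicate 1, beside 8 of 70 members, and 11.2% and 11.9% without day 21 replicate 1 and 2, beside 9 of 70 in each, so that the members were then near all genes. In total 130 calls were made against sham (79 higher and 51 lower), and in all 130 both libraries of the day lay outside both sham libraries. In 127 of them the sign was the same within replicate 1 and within replicate 2, and in the other 3 a library had 0 counts. The alternatives were median-of-ratios scaling, DESeq2, no filter on low counts, the replicate block, a fit of the 2 groups alone, each library left out in turn, and both day 7 libraries left out. Of the 130 calls, 51 passed the threshold in every alternative, of which 6 were on day 1, 6 were on day 3, 18 were on day 7, 9 were on day 21 and 12 were on day 60. The other 79 reached an adjusted p of 0.0509 to 0.476 in at least 1. In what follows a value introduced by "or" after an adjusted p is the adjusted p in the alternatives that ended the call, and a call said to hold passed in all of them.

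Across time, 54 members were called at 1 day or more in the edgeR test without the block. In that test 31 of these were only ever higher than sham, 22 only ever lower, and Sema6c was both. With the block, Robo2, Slit3, Ephb2 and Ntn3 were called in both directions as well. In the test without it, Nrp1, Efnb1, Sema4c and Unc50 were higher at all 5 days, and Efna3 and Epha10 were lower at all 5. When all 6 groups were tested together, 46 of 70 members differed, beside 42.7% of all genes, and 28 did so when both day 7 libraries were left out. The highest group mean was on day 7 in 26 members and in sham cells in 20, and the lowest was on day 1 in 26. Apart from the 46 that differed among the 6 groups, the counts of this paragraph were not set beside those of all genes. They describe the members and do not mark them off from other genes.

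**Figure D2:**
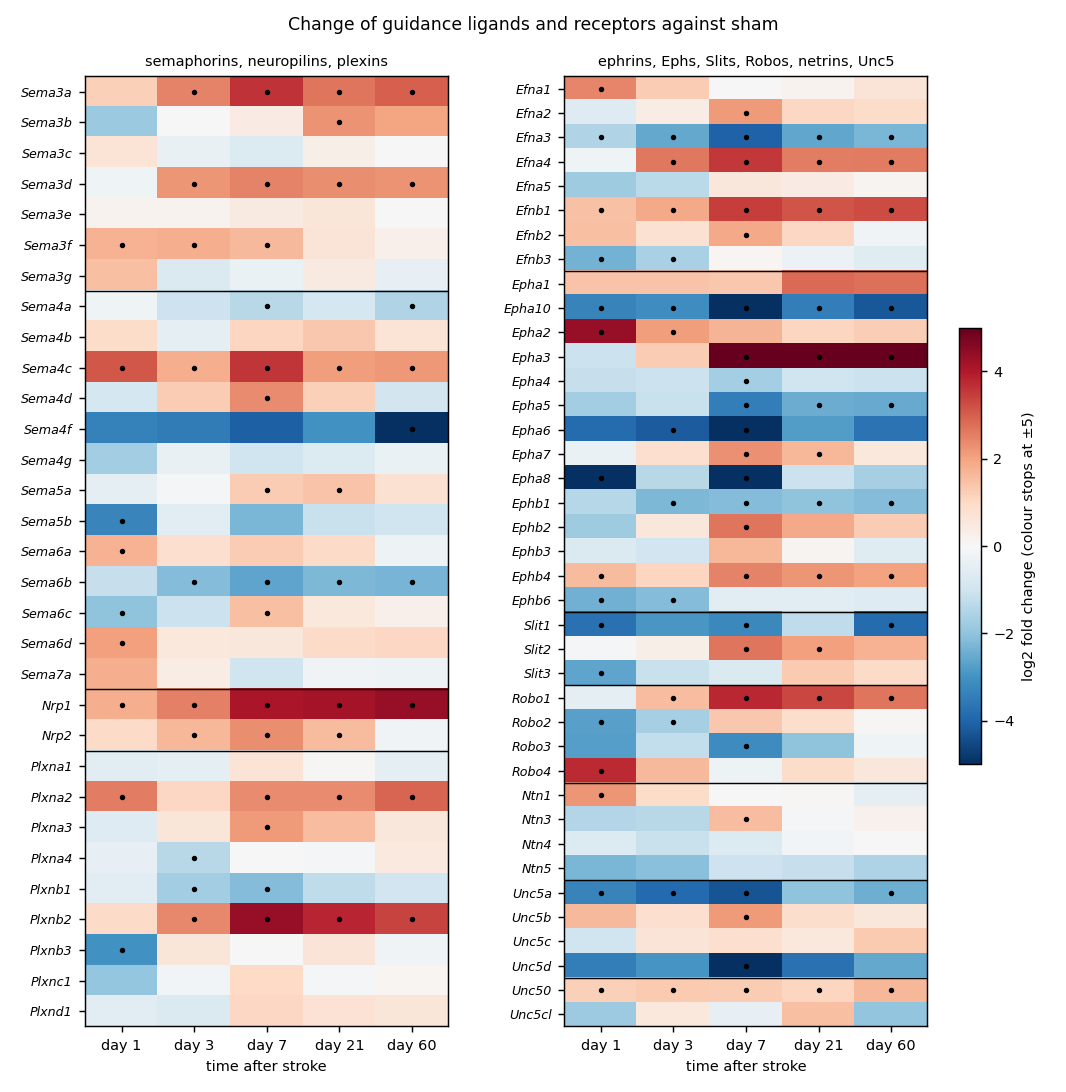
Log2 fold change of each of the 70 members against sham on days 1, 3, 7, 21 and 60 after stroke, grouped by family, with called members marked. Nrp1 and Efnb1 are higher in all 5 columns, and Efna3 and Epha10 lower in all 5.

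Both neuropilins were higher after stroke, Nrp1 at all 5 days and Nrp2 on days 3, 7 and 21. Nrp1 (mm10 chr8:128358604-128503363, plus strand) is the co-receptor of semaphorin 3A and of VEGF-A. In CPM, counts scaled to library size by the TMM method, it had 32.1 and 38.5 CPM in sham cells, 137 and 113 on day 1 and 205 and 198 on day 3. It had 595 and 613 CPM on day 7, 677 and 599.8 on day 21 and 694 and 744 on day 60. Both libraries of every day lay above both sham libraries, and the day 7, 21 and 60 libraries lay above those of days 1 and 3. It rose on day 1 (log2FC 1.82 ± 0.31, adjusted p = 0.00318, where ± gives the standard error of the fit), day 3 (log2FC 2.51 ± 0.31, adjusted p = 0.000543), day 7 (log2FC 4.1 ± 0.34, adjusted p = 4.28e-05) and day 21 (log2FC 4.18 ± 0.34, adjusted p = 5.85e-05), and it was also higher on day 60 (log2FC 4.35 ± 0.34, adjusted p = 4.89e-05). All 5 calls held in every alternative. Nrp2 (mm10 chr1:62703285-62818695, plus strand), the co-receptor of semaphorin 3F, had 10.6 and 12.3 CPM in sham cells, 30.2 and 14 on day 1 and 45.2 and 27.8 on day 3. It had 64.4 and 51.9 CPM on day 7, 36.7 and 31.7 on day 21 and 9.05 and 11.2 on day 60. Its increase on day 7 held in every alternative (log2FC 2.34 ± 0.43, adjusted p = 0.00181). Those on day 3 (log2FC 1.67 ± 0.42, adjusted p = 0.0138, or 0.0616 to 0.087 without sham replicate 1 or 2 or day 3 replicate 1) and day 21 (log2FC 1.58 ± 0.42, adjusted p = 0.0166, or 0.0533 to 0.0995 without sham replicate 1 or 2 or day 21 replicate 1 or 2) did not. By day 60 the Nrp2 libraries lay on both sides of the lower sham value (log2FC -0.17 ± 0.41, adjusted p = 0.783). Per kilobase of exon, Nrp1 stood at 61.7 CPM per kb on day 7 and 73.5 on day 60, against 3.61 in sham cells, the highest of all 70 members at both of those days. The fibroblast list held more of the counts than in sham cells at every day after stroke. It held 0.199 and 0.272% on day 1, 0.688 and 2.43% on day 3 and 3.17 and 4.96% on day 21. The list was highest on day 7 (8.23 and 20.0%) and held 2.07 and 2.77% on day 60, when Nrp1 was highest. The part of these cells in the result was not tested.

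Of the 9 plexins, the signalling receptors of semaphorins, 3 were higher and 1 lower than sham on day 7. The shares of all genes were 23.2% and 19.8%. Plxnb2 (mm10 chr15:89155549-89180788, minus strand), a receptor of Sema4c, had 13.1 and 30.2 CPM in sham cells, 37 and 47.9 on day 1 and 121 and 106 on day 3. It had 424 and 467 CPM on day 7, 252 and 348 on day 21 and 167 and 282 on day 60. All libraries from day 1 on lay above the sham libraries, and the day 7 libraries were the highest. Its calls on day 3 (log2FC 2.39 ± 0.46, adjusted p = 0.00411), day 7 (log2FC 4.36 ± 0.50, adjusted p = 0.00017), day 21 (log2FC 3.79 ± 0.49, adjusted p = 0.000476) and day 60 (log2FC 3.37 ± 0.48, adjusted p = 0.000891) held in every alternative, while day 1 did not pass (log2FC 0.97 ± 0.44, adjusted p = 0.121, or 0.0281 with the replicate block). Plxna2, a partner of neuropilins, had 15.8 and 18.3 CPM in sham cells, 139 and 62.9 on day 1 and 43.7 and 25.6 on day 3. It had 87.5 and 88.9 CPM on day 7, 88 and 88.3 on day 21 and 145 and 112 on day 60. It was high on day 1, closer to sham on day 3 and high again from day 7 on. It rose by 2.56 ± 0.44 log2 units on day 1 (adjusted p = 0.00332), by 2.37 ± 0.43 on day 7 (adjusted p = 0.00176), by 2.37 ± 0.43 on day 21 (adjusted p = 0.00291) and by 2.91 ± 0.44 on day 60 (adjusted p = 0.00129), and day 3 passed with the block alone (log2FC 1.02 ± 0.42, adjusted p = 0.0867, or 0.0429 with it). Plxnb1, the receptor of Sema4d, had 38.9 and 51.5 CPM in sham cells, 15.1 and 47.2 on day 1 and 16.6 and 10.4 on day 3. It had 9.07 and 10.9 CPM on day 7, 17.9 and 19.5 on day 21 and 23.3 and 23.5 on day 60. Its day 1 libraries lay below sham and within the sham values, and all later libraries lay below both sham libraries. It fell on day 7 (log2FC -2.18 ± 0.51, adjusted p = 0.00639, or 0.0509 without day 7 replicate 1) and on day 3 (log2FC -1.75 ± 0.50, adjusted p = 0.0236, or 0.0513 to 0.112 without sham replicate 1 or 2 or day 3 replicate 1 or 2). Plxnd1, the receptor of Sema3e, had 29.9 and 68.3 CPM in sham cells, 34.7 and 31.4 on day 1 and 34.8 and 25.3 on day 3. It had 95.6 and 105 CPM on day 7, 72.8 and 89.6 on day 21 and 70.6 and 79.4 on day 60. Every library from day 7 on lay above both sham libraries, but Plxnd1 was not called against sham (log2FC 1.03 ± 0.39, adjusted p = 0.0574 on day 7, or 0.0263 with the block). Plxna3, at 6.78 and 8.27 CPM on day 7 against 1.61 and 1.8 CPM in sham cells, was higher on thon day (log2FC 2.14 ± 0.75, adjusted p = 0.0402, or 0.0509 to 0.154 without sham replicate 1 or 2, day 3 replicate 1 or 2, day 7 replicate 1 or 2 or day 21 replicate 1 or 2 or with median-of-ratios scaling). Plxnb3 was lower on day 1 (log2FC -3.04 ± 1.02, adjusted p = 0.0462, or 0.0517 to 0.273 without sham replicate 1 or 2, day 1 replicate 1, day 7 replicate 1 or 2, day 21 replicate 1 or 2 or day 60 replicate 1 or 2 or with the 2 groups alone or without both day 7 libraries). Plxna4 was lower on day 3 (log2FC -1.37 ± 0.40, adjusted p = 0.0253, or 0.069 to 0.105 without sham replicate 1 or 2 or day 3 replicate 2 or with the 2 groups alone). Plxna1 and Plxnc1 were not called on any day, although Plxnc1 was lower on day 1 with the block (adjusted p = 0.0479) and by DESeq2 (0.0166).

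**Figure D3:**
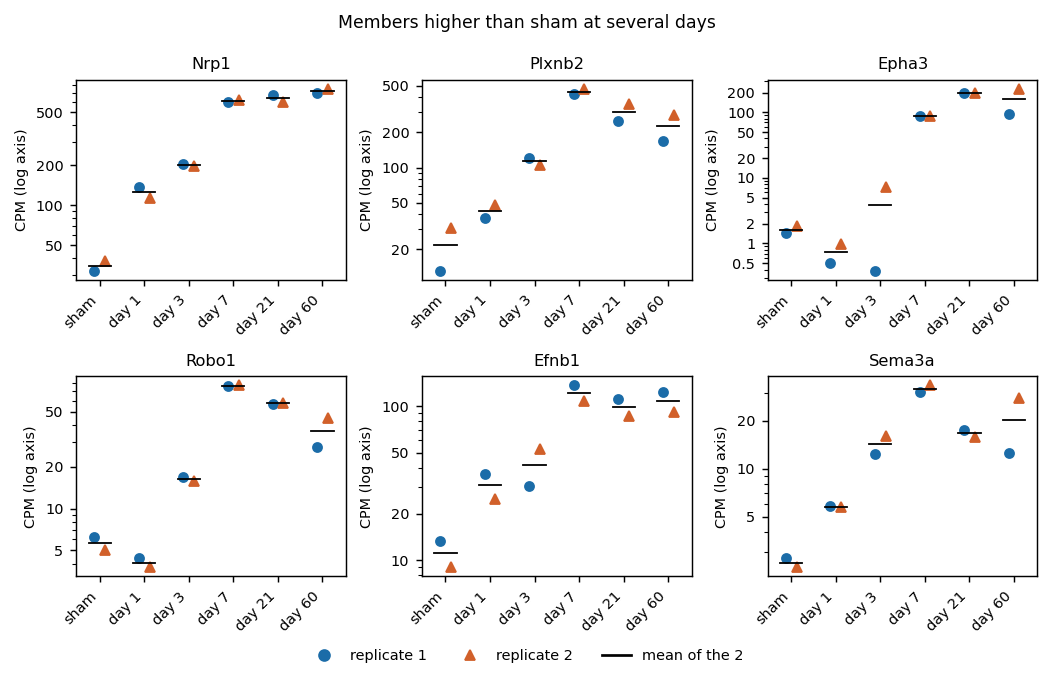
Normalised level (CPM, log axis) of Nrp1, Plxnb2, Epha3, Robo1, Efnb1 and Sema3a in each of the 12 libraries, by group. Circles are replicate 1, triangles replicate 2 and bars the mean of both. From day 7 on every library of all 6 genes lies above both sham libraries.

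Of the 7 secreted class 3 semaphorins, the ligands of the neuropilins, Sema3a, Sema3b, Sema3d and Sema3f were called higher than sham at 1 day or more. Sema3a (mm10 chr5:13125414-13602565, plus strand), the repellent ligand of Nrp1, had 2.75 and 2.41 CPM in sham cells, 5.84 and 5.74 on day 1 and 12.4 and 16 on day 3. It had 30.1 and 33.2 CPM on day 7, 17.4 and 15.8 on day 21 and 12.5 and 27.8 on day 60. No library after stroke overlapped the sham libraries, and the level was highest on day 7. Its increases on day 3 (log2FC 2.47 ± 0.43, adjusted p = 0.0026), day 7 (log2FC 3.62 ± 0.45, adjusted p = 0.00025), day 21 (log2FC 2.69 ± 0.43, adjusted p = 0.00153) and day 60 (log2FC 2.98 ± 0.44, adjusted p = 0.00107) held in every alternative, and day 1 did not pass (log2FC 1.17 ± 0.42, adjusted p = 0.0558, or 0.0303 with the block). Sema3a and Nrp1 were both called higher on days 3, 7, 21 and 60. Sema3d had 2.15 and 2.45 CPM in sham cells, 2.84 and 1.19 on day 1 and 3.92 and 17.1 on day 3. It had 13.2 and 12.7 CPM on day 7, 12.2 and 11 on day 21 and 5.96 and 15.7 on day 60, and all libraries from day 3 on lay above both sham libraries. It was higher on day 7 (log2FC 2.48 ± 0.75, adjusted p = 0.0218, or 0.0617 to 0.107 without sham replicate 1 or 2 or day 7 replicate 1 or 2) and day 21 (log2FC 2.33 ± 0.74, adjusted p = 0.0352, or 0.0504 to 0.151 without sham replicate 1 or 2, day 7 replicate 1 or 2 or day 21 replicate 1 or 2 or without both day 7 libraries). The day 60 increase passed as well (log2FC 2.24 ± 0.74, adjusted p = 0.0426, or 0.0601 to 0.252 without sham replicate 1 or 2, day 7 replicate 1 or 2, day 21 replicate 1 or 2 or day 60 replicate 2 or without both day 7 libraries). It was also called on day 3 (log2FC 2.2 ± 0.74, adjusted p = 0.0446, or 0.0528 to 0.476 without sham replicate 1 or 2, day 3 replicate 2, day 7 replicate 1 or 2 or day 21 replicate 1 or 2 or with median-of-ratios scaling or with the 2 groups alone or without both day 7 libraries). Without day 3 replicate 2 the day 3 log2 fold change was 0.68 (adjusted p = 0.476). Sema3f, the ligand of Nrp2, had 2.69 and 6.66 CPM in sham cells, 15.1 and 16.3 on day 1 and 17.7 and 15.7 on day 3. It had 12.9 and 16.4 CPM on day 7, 6.16 and 8.76 on day 21 and 3.72 and 7.43 on day 60. The libraries of days 1, 3 and 7 lay above those of sham, day 21 and day 60. It was higher on day 1 (log2FC 1.74 ± 0.52, adjusted p = 0.0293, or 0.0521 to 0.163 without sham replicate 1, day 1 replicate 1 or 2 or day 21 replicate 1 or with the 2 groups alone) and day 3 (log2FC 1.82 ± 0.52, adjusted p = 0.023, or 0.0522 to 0.137 without sham replicate 1 or day 3 replicate 1 or 2 or with the 2 groups alone). The day 7 increase passed too (log2FC 1.64 ± 0.52, adjusted p = 0.0269, or 0.0514 to 0.159 without sham replicate 1 or day 7 replicate 1 or 2 or with the 2 groups alone). Sema3b had 2.09 and 6.59 CPM in sham cells, 2.0 and 0.557 on day 1 and 3.29 and 5.64 on day 3. It had 3.29 and 8.16 CPM on day 7, 15.5 and 26.6 on day 21 and 15 and 19.8 on day 60. It was called higher on day 21 (log2FC 2.26 ± 0.76, adjusted p = 0.044, or 0.0511 to 0.217 without sham replicate 1, day 3 replicate 1 or 2, day 21 replicate 1 or 2 or day 60 replicate 1 or 2), and its day 60 libraries also lay above sham (adjusted p = 0.0693, or 0.0292 with the block and 0.0267 by DESeq2). Sema3c had the highest mean CPM of the class but no call, with 45.8 and 64.7 CPM in sham cells, 109.9 and 67.1 on day 1 and 74.4 and 10.8 on day 3. It had 32.5 and 35.7 CPM on day 7, 71.2 and 63.7 on day 21 and 38 and 72.8 on day 60. Its day 3 libraries lay on opposite sides of sham. Sema3e and Sema3g were not called either.

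Membrane-bound semaphorins split in direction. Sema4c (mm10 chr1:36548639-36558349, minus strand), a ligand of Plxnb2, had 2.21 and 3.93 CPM in sham cells, 34.2 and 19.8 on day 1 and 13.6 and 8.19 on day 3. It had 35.5 and 38.4 CPM on day 7, 12.2 and 14.1 on day 21 and 14.9 and 13.4 on day 60. It was high on day 1, lower on day 3, highest on day 7 and still above sham on day 60. Its calls on day 1 (log2FC 3.12 ± 0.46, adjusted p = 0.00195), day 7 (log2FC 3.57 ± 0.47, adjusted p = 0.000315) and day 60 (log2FC 2.19 ± 0.44, adjusted p = 0.00539)) held in every alternative. Those on day 3 (log2FC 1.81 ± 0.44, adjusted p = 0.0115, or 0.0648 to 0.085 without sham replicate 1 or day 3 replicate 1 or with the 2 groups alone) and day 21 (log2FC 2.09 ± 0.44, adjusted p = 0.00582, or 0.0513 without sham replicate 1) did not. Sema4d, the ligand of Plxnb1, which T cells and oligodendrocytes are known to carry, had 9.08 and 17.8 CPM in sham cells, 6.39 and 8.12 on day 1 and 45.1 and 20.6 on day 3. It had 90.3 and 48.4 CPM on day 7, 30.1 and 32.1 on day 21 and 3.78 and 10.4 on day 60. Its day 3, 7 and 21 libraries lay above sham, and day 7 passed (log2FC 2.36 ± 0.60, adjusted p = 0.00956, or 0.0647 to 0.0789 without sham replicate 1 or day 7 replicate 1). The macrophage and leukocyte list held 0.405 and 0.388% of counts on day 7, against 0.00299 and 0.00203% in sham cells, with 5 of 10 markers higher and 1 lower, and Cd3e, a T cell marker, was at 0 in both sham libraries. The oligodendrocyte list held 0.095 and 0.0444% on day 7, against 1.05 and 0.913% in sham cells, with 1 of 9 markers higher and 5 lower. The microglia list held 0.54 and 0.345% on day 3, 0.599 and 0.305% on day 7 with 7 of 10 markers higher, 0.215 and 0.19% on day 21 and 0.0973 and 0.0685% on day 60, against 0.0671 and 0.0777% in sham cells. The part of these cells in the result was not tested. Sema6b (mm10 chr17:56123085-56140343, minus strand), a ligand of A-type plexins, went the other way, with 91.4 and 132 CPM in sham cells, 56.2 and 44.1 on day 1 and 34.1 and 15.8 on day 3. It had 20.9 and 15.5 CPM on day 7, 20.8 and 25.8 on day 21 and 17.9 and 26.5 on day 60. Every library after stroke lay below both sham libraries. Its decreases on day 3 (log2FC -2.17 ± 0.43, adjusted p = 0.00478), day 7 (log2FC -2.62 ± 0.44, adjusted p = 0.00109), day 21 (log2FC -2.26 ± 0.43, adjusted p = 0.00359) and day 60 (log2FC -2.33 ± 0.43, adjusted p = 0.00356) held in every alternative, and day 1 did not pass (log2FC -1.16 ± 0.42, adjusted p = 0.0593), unlike with the block (adjusted p = 0.0363), by DESeq2 (0.0181) or with median-of-ratios scaling (0.0432). Sema6b had the highest level per length of all 70 members in sham cells, 28.2 CPM per kb, against 4.58 on day 7.

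Sema6c, whose receptors are A-type plexins, was the only member called in both directions in the edgeR test without the block. It had 15.1 and 24.8 CPM in sham cells, 3.39 and 6.36 on day 1 and 7.53 and 11.2 on day 3. It had 52.5 and 60.4 CPM on day 7, 23.2 and 33.8 on day 21 and 25.1 and 22.8 on day 60. The day 1 libraries lay below sham (log2FC -2.02 ± 0.43, adjusted p = 0.00776, or 0.0516 to 0.0541 without sham replicate 2 or day 1 replicate 1 or with the 2 groups alone) and the day 7 libraries above (log2FC 1.5 ± 0.42, adjusted p = 0.0166, or 0.0784 to 0.122 without sham replicate 1 or day 7 replicate 2). Day 7 set directly against day 1 gave a log2 fold change of 3.52 ± 0.46, adjusted p = 0.00101, beside 18.1% of all genes that differed between those days, and this contrast held in every alternative that could give it. Among the other membrane-bound semaphorins, Sema5a was higher on day 7 (log2FC 1.28 ± 0.43, adjusted p = 0.0342, or 0.0588 to 0.155 without sham replicate 1 or 2, day 7 replicate 1 or 2 or day 21 replicate 1 or 2 or with median-of-ratios scaling or with the 2 groups alone) and day 21 (log2FC 1.42 ± 0.43, adjusted p = 0.0283, or 0.0502 to 0.153 without sham replicate 1 or 2, day 7 replicate 1 or day 21 replicate 1 or 2 or without both day 7 libraries). Sema6a was higher on day 1 (log2FC 1.73 ± 0.48, adjusted p = 0.0225, or 0.0583 to 0.139 without sham replicate 1 or 2 or day 1 replicate 1). Sema4a was lower on day 7 (log2FC -1.4 ± 0.39, adjusted p = 0.0147, or 0.0663 to 0.0874 without sham replicate 2 or day 7 replicate 1 or 2) and day 60 (log2FC -1.5 ± 0.39, adjusted p = 0.0158, or 0.0801 to 0.0888 without sham replicate 2 or day 60 replicate 2). Sema5b was lower on day 1 (log2FC -3.32 ± 0.91, adjusted p = 0.0208, or 0.0516 to 0.109 without sham replicate 1 or 2 or day 1 replicate 1). Sema4f had 0.687 and 0 CPM on day 60, against 12.4 and 17.3 CPM in sham cells, and was lower on day 60 (log2FC -5.71 ± 1.72, adjusted p = 0.0297, or 0.0677 to 0.0848 without sham replicate 1 or 2 or with the 2 groups alone). Its libraries lay below sham at every other day too, from 0.50 and 2.25 CPM on day 1 on, without passing (adjusted p = 0.108 on day 1, 0.10 on day 3, 0.0555 on day 7 and 0.137 on day 21). Day 7 passed with the block (0.0347), and all 4 of those days by DESeq2 (0.00257 to 0.0317). Sema7a, a lipid-anchored semaphorin, had 46.5 and 31.4 CPM on day 1, against 8.6 and 13.2 CPM in sham cells, and did not pass on day 1 (log2FC 1.83 ± 0.70, adjusted p = 0.0706, or 0.0347 by DESeq2), although it differed among the 6 groups.

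Among ephrins, Efnb1 was higher and Efna3 lower than sham at all 5 days. Efnb1 (mm10 chrX:99136130-99148991, plus strand), a transmembrane ligand of EphB receptors, had 13.4 and 8.99 CPM in sham cells, 36.2 and 25.2 on day 1 and 30.3 and 52.5 on day 3. It had 137 and 108 CPM on day 7, 111 and 86.8 on day 21 and 124 and 91.4 on day 60. All 10 libraries after stroke lay above both sham libraries, and those of days 7, 21 and 60 above those of days 1 and 3. Its increases on day 7 (log2FC 3.45 ± 0.43, adjusted p = 0.000242), day 21 (log2FC 3.15 ± 0.42, adjusted p = 0.000575) and day 60 (log2FC 3.27 ± 0.42, adjusted p = 0.000528)) held in every alternative. Those on day 1 (log2FC 1.46 ± 0.40, adjusted p = 0.0201, or 0.0623 to 0.131 without sham replicate 2 or day 1 replicate 1 or with the 2 groups alone) and day 3 (log2FC 1.89 ± 0.40, adjusted p = 0.00631, or 0.0561 without sham replicate 2) did not. Efna3 (mm10 chr3:89313899-89322965, minus strand), a lipid-anchored ligand of EphA receptors that binds Epha4 at astrocyte contacts with neurons, had 23.5 and 20.9 CPM in sham cells, 10.4 and 5.32 on day 1 and 4.37 and 3.28 on day 3. It had 1.81 and 0.921 CPM on day 7, 4.37 and 3.09 on day 21 and 5.1 and 3.98 on day 60. Each library after stroke lay below both sham libraries, with the lowest values on day 7. Its decreases on day 3 (log2FC -2.54 ± 0.53, adjusted p = 0.00604) and day 7 (log2FC -4.06 ± 0.58, adjusted p = 0.000474) held in every alternative. Those on day 1 (log2FC -1.5 ± 0.51, adjusted p = 0.0488, or 0.0529 to 0.167 without sham replicate 1 or 2, day 1 replicate 1 or 2, day 7 replicate 1, day 21 replicate 1 or 2 or day 60 replicate 2 or with the 2 groups alone), day 21 (log2FC -2.58 ± 0.53, adjusted p = 0.00526, or 0.0573 without day 21 replicate 2) and day 60 (log2FC -2.29 ± 0.53, adjusted p = 0.00972, or 0.0643 without day 60 replicate 2) did not. Exons of Efna3 overlap a predicted gene on the opposite strand, and the strand setting of the counting is not given in the sources used here.

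Efna4, another lipid-anchored ephrin, had 0.358 and 0.885 CPM in sham cells, 0.167 and 0.873 on day 1 and 4.87 and 3.23 on day 3. It had 8.73 and 6.46 CPM on day 7, 3.59 and 4.08 on day 21 and 3.95 and 3.81 on day 60. All libraries from day 3 on lay above sham, and its increase on day 7 (log2FC 3.55 ± 0.81, adjusted p = 0.00569) held in every alternative. It was also called on day 3 (log2FC 2.64 ± 0.78, adjusted p = 0.0273, or 0.0507 to 0.146 without sham replicate 1 or 2, day 3 replicate 1 or day 21 replicate 1 or with the 2 groups alone or without both day 7 libraries) and day 21 (log2FC 2.57 ± 0.78, adjusted p = 0.0292, or 0.0528 to 0.156 without sham replicate 1 or 2 or day 21 replicate 1 or 2 or without both day 7 libraries). Day 60 was called too (log2FC 2.59 ± 0.78, adjusted p = 0.0305, or 0.0511 to 0.157 without sham replicate 1 or 2, day 7 replicate 1, day 21 replicate 1 or day 60 replicate 1 or 2 or with the 2 groups alone or without both day 7 libraries). Efna1, the main ligand of Epha2 and a gene of endothelial cells, had 19.9 and 14.1 CPM in sham cells, 135 and 50.8 on day 1 and 61.8 and 20.0 on day 3. It had 16.1 and 17.9 CPM on day 7, 19.8 and 18.6 on day 21 and 26.9 and 26.6 on day 60. It rose on day 1 (log2FC 2.45 ± 0.58, adjusted p = 0.0113, or 0.0505 to 0.0976 without sham replicate 1 or 2 or day 1 replicate 1), and on day 7 its libraries were among the sham values. Efna2 was higher on day 7, with 28.8 and 25.6 CPM against 9.02 and 3.49 CPM in sham cells (log2FC 2.13 ± 0.55, adjusted p = 0.0108, or 0.0733 without sham replicate 2). Efnb2, the arterial partner of Ephb4, had 42.2 and 21.8 CPM on day 7, against 10.0 and 7.26 CPM in sham cells (log2FC 1.89 ± 0.65, adjusted p = 0.0388, or 0.0507 to 0.203 without sham replicate 1 or 2, day 7 replicate 1 or day 60 replicate 1 or 2 or with median-of-ratios scaling). Efnb3 was lower on day 1 (log2FC -2.36 ± 0.51, adjusted p = 0.00803, or 0.0577 without day 1 replicate 1) and day 3 (log2FC -1.62 ± 0.50, adjusted p = 0.0308, or 0.0566 to 0.143 without sham replicate 1 or 2 or day 3 replicate 1 or with the 2 groups alone). Efna5 was called only with the block, lower on day 1 (adjusted p = 0.0259).

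Among the 14 Eph receptors, Epha3 changed most upward and several EphA receptors fell. Epha3 (mm10 chr16:63543534-63864175, minus strand), a receptor of A-class ephrins, had 1.43 and 1.83 CPM in sham cells, 0.50 and 0.994 on day 1 and 0.38 and 7.22 on day 3. It had 87.5 and 89 CPM on day 7, 196 and 195 on day 21 and 95.4 and 226 on day 60. The libraries of days 7, 21 and 60 lay far above all earlier ones, and within day 3 the libraries lay on opposite sides of sham. Its increases on day 7 (log2FC 5.74 ± 1.08, adjusted p = 0.00199), day 21 (log2FC 6.89 ± 1.13, adjusted p = 0.0017) and day 60 (log2FC 6.61 ± 1.12, adjusted p = 0.00226) held in every alternative, and with 18.5 CPM per kb on day 60, against 0.188 in sham cells, it was among the more abundant members. Ephb4, a receptor of Efnb2, had 20.8 and 36.9 CPM in sham cells, 89.3 and 81.9 on day 1 and 76.6 and 45.1 on day 3. It had 152 and 171 CPM on day 7, 125 and 145 on day 21 and 98.6 and 135 on day 60. All libraries after stroke lay above sham, and the increases on day 7 (log2FC 2.48 ± 0.40, adjusted p = 0.000929), day 21 (log2FC 2.22 ± 0.40, adjusted p = 0.00266) and day 60 (log2FC 2.02 ± 0.40, adjusted p = 0.0047) held in every alternative, unlike day 1 (log2FC 1.57 ± 0.39, adjusted p = 0.0142, or 0.0541 to 0.106 without sham replicate 1 or day 1 replicate 1 or with the 2 groups alone). Epha7, a further EphA receptor, had 42.5 and 46.9 CPM on day 7, against 8.54 and 9.89 CPM in sham cells (log2FC 2.28 ± 0.51, adjusted p = 0.00537). It was also called higher on day 21, at 26.7 and 32.1 CPM, but not in every alternative. Ephb2 had 7.93 and 9.39 CPM on day 7, against 1.08 and 1.6 CPM in sham cells (log2FC 2.68 ± 0.86, adjusted p = 0.0285, or 0.0525 to 0.14 without sham replicate 1 or 2, day 7 replicate 1 or 2 or day 21 replicate 1). On day 7 the fibroblast list held 8.23 and 20.0% of counts, and its part in these increases was not tested.

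Lower Eph receptors included Epha10, which lacks kinase activity. Epha10 (mm10 chr4:124880899-124917800, plus strand) had 11.5 and 18.2 CPM in sham cells, 0.667 and 2.23 on day 1 and 2.22 and 1.23 on day 3. It had 0.202 and 0.353 CPM on day 7, 1.18 and 1.5 on day 21 and 0.458 and 1.08 on day 60. Each library after stroke lay below both sham libraries, by most on day 7. Its decreases on day 7 (log2FC -5.66 ± 0.89, adjusted p = 0.000788) and day 60 (log2FC -4.23 ± 0.82, adjusted p = 0.00445) held in every alternative. It was also called on day 1 (log2FC -3.33 ± 0.78, adjusted p = 0.0113, or 0.0641 to 0.0671 without sham replicate 2 or day 1 replicate 1), day 3 (log2FC -3.13 ± 0.78, adjusted p = 0.0132, or 0.0656 to 0.0796 without sham replicate 2 or day 3 replicate 2) and day 21 (log2FC -3.47 ± 0.79, adjusted p = 0.00843, or 0.0512 to 0.0668 without sham replicate 2 or day 21 replicate 1 or 2). Ephb1, a receptor of B-class ephrins, had 11 and 13.5 CPM on day 7 and 8.99 and 15.6 CPM on day 60, against 52.4 and 58.6 CPM in sham cells. It fell on day 3 (log2FC -2.26 ± 0.53, adjusted p = 0.0096, or 0.0688 without day 3 replicate 1) and day 7 (log2FC -2.18 ± 0.52, adjusted p = 0.00753, or 0.0575 without day 7 replicate 1). It also fell on day 21 (log2FC -2.01 ± 0.52, adjusted p = 0.0149, or 0.0571 to 0.0903 without sham replicate 2 or day 21 replicate 1 or 2) and day 60 (log2FC -2.17 ± 0.52, adjusted p = 0.0121, or 0.0721 without day 60 replicate 1). Epha4, which binds ephrins of both classes and restrains axon growth, had 8.2 and 8.08 CPM on day 7, against 26.5 and 26.7 CPM in sham cells (log2FC -1.71 ± 0.40, adjusted p = 0.00651), in every alternative. With the replicate block its day 1, 3, 21 and 60 values passed as well (adjusted p = 0.0132, 0.0163, 0.0235 and 0.0163). Epha5 was lower on day 7 (log2FC -3.44 ± 0.85, adjusted p = 0.00842, or 0.0539 without day 7 replicate 2) and day 21 (log2FC -2.47 ± 0.80, adjusted p = 0.038, or 0.0991 to 0.171 without sham replicate 1 or 2 or day 21 replicate 1 or 2). The decrease passed on day 60 too (log2FC -2.52 ± 0.80, adjusted p = 0.0373, or 0.0502 to 0.133 without sham replicate 1 or 2, day 21 replicate 1 or 2 or day 60 replicate 1 or 2). Ephb6, which also lacks kinase activity, was lower on day 1 (log2FC -2.4 ± 0.67, adjusted p = 0.0229, or 0.0559 to 0.119 without sham replicate 2 or day 1 replicate 1 or with the 2 groups alone) and day 3 (log2FC -2.15 ± 0.67, adjusted p = 0.0324, or 0.155 to 0.165 without sham replicate 2 or day 3 replicate 1). Epha6 had 0.202 and 0 CPM on day 7, against 4.9 and 7.01 CPM in sham cells, and Epha8 had 0.0672 and 0.0186 CPM on day 7, against 0.956 and 4.69 CPM in sham cells. Both were called lower on day 7, where each held only 3 counts in all. The Epha6 call on day 7 held in every alternative. The Epha8 call on day 7 had an adjusted p of 0.0283, or 0.0865 to 0.18 without sham replicate 2 or day 7 replicate 1 or 2. Epha8 was also called lower on day 1, where it held 0 and 4 counts. Epha6 was also called lower on day 3, where it held 2 and 54 counts. Neither of these further calls held in every alternative. Epha6, Epha10 and Ephb1 are among the 15 members that share exon bases with an opposite-strand gene. All 10 markers of the neuron list were lower than sham on days 3, 7, 21 and 60, and the list held 0.0527 and 0.111% of counts on day 3, against 0.848 and 0.988% in sham cells. The part of neurons in these decreases was not tested.

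**Figure D4:**
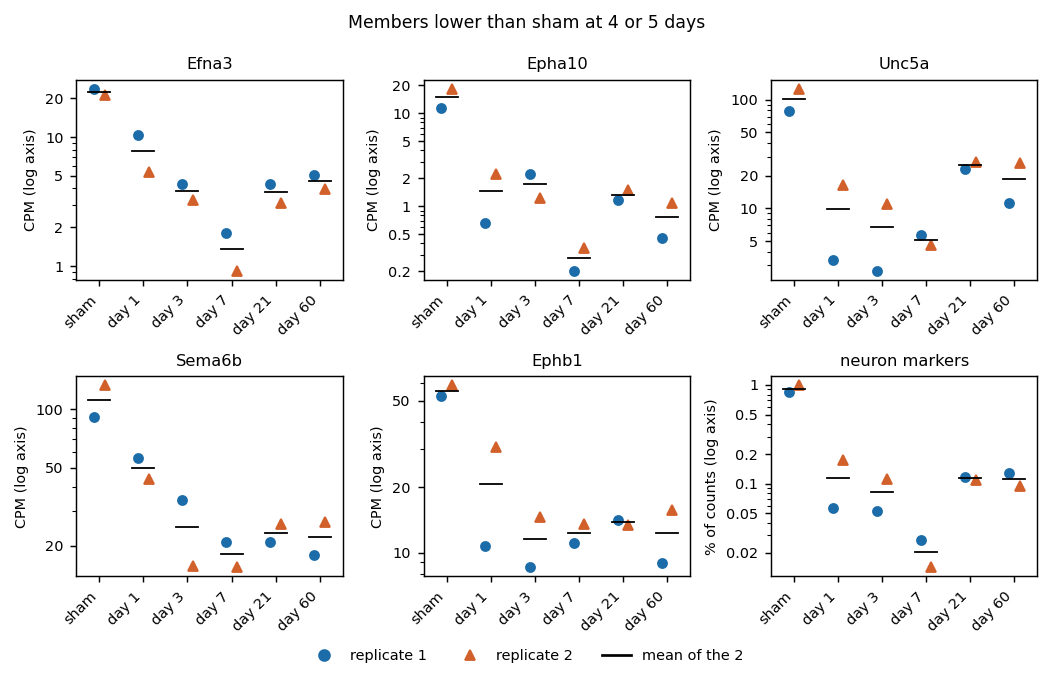
Normalised level (CPM, log axis) of Efna3, Epha10, Unc5a, Sema6b and Ephb1 and the summed neuron marker list (percent of counts, log axis) in each of the 12 libraries. Circles are replicate 1, triangles replicate 2 and bars the mean of both. All libraries after stroke lie below both sham libraries in all 6 panels.

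Several members had their highest group mean on day 1. Epha2 (mm10 chr4:141301240-141329384, plus strand), an Eph receptor of epithelial and endothelial cells, had 1.91 and 4.19 CPM in sham cells, 84 and 42.1 on day 1 and 19.9 and 6.83 on day 3. It had 9.34 and 10.7 CPM on day 7, 5.15 and 7.97 on day 21 and 4.07 and 10.5 on day 60. The day 1 libraries lay far above sham, and the day 3 libraries were lower again. Its increase on day 1 held in every alternative (log2FC 4.35 ± 0.74, adjusted p = 0.00329), and that on day 3 did not (log2FC 2.1 ± 0.67, adjusted p = 0.0369, or 0.0516 to 0.265 without sham replicate 1 or 2, day 3 replicate 1, day 7 replicate 1 or 2 or day 21 replicate 1 or with the 2 groups alone or without both day 7 libraries). Robo4 (mm10 chr9:37401897-37415115, plus strand), the Robo receptor of endothelial cells, had 22.6 and 36.4 CPM in sham cells, 515 and 258 on day 1 and 156 and 24.7 on day 3. It had 22.2 and 26.8 CPM on day 7, 48.6 and 62.3 on day 21 and 28 and 59.3 on day 60. Its day 3 libraries differed widely, replicate 1 lying above sham and replicate 2 among the sham values. It rose on day 1 (log2FC 3.71 ± 0.80, adjusted p = 0.00807, or 0.0644 without sham replicate 1). Ntn1, the secreted attractant of commissural axons, had 3.23 and 1.91 CPM in sham cells, 18 and 5.63 on day 1 and 7.21 and 2.53 on day 3. It had 3.16 and 1.9 CPM on day 7, 3.25 and 2.04 on day 21 and 1.83 and 1.81 on day 60. It rose on day 1 (log2FC 2.21 ± 0.75, adjusted p = 0.0486, or 0.0573 to 0.383 without sham replicate 1 or 2, day 1 replicate 1, day 7 replicate 1 or 2, day 21 replicate 1 or 2 or day 60 replicate 1 or 2 or with median-of-ratios scaling or with the 2 groups alone or without both day 7 libraries). Sema6d, a ligand of Plxna1, had 101 and 56.1 CPM on day 1, against 15.8 and 22.4 CPM in sham cells (log2FC 2.04 ± 0.50, adjusted p = 0.0137, or 0.0505 to 0.0974 without sham replicate 1 or 2 or day 1 replicate 1). The endothelial list held 0.827 and 0.385% of counts in replicates 1 and 2 on day 1 and 0.463 and 0.0792% on day 3, against 0.121 and 0.113% in sham cells. Robo4, Epha2, Efna1 and the list were each higher in replicate 1 than in replicate 2 on both days. The same held for Ntn1, Sema6d, Plxna2 and Sema4c, whereas Unc5a and Robo2 were lower in replicate 1 on both days. The part of endothelial cells in these values was not tested.

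**Figure D5:**
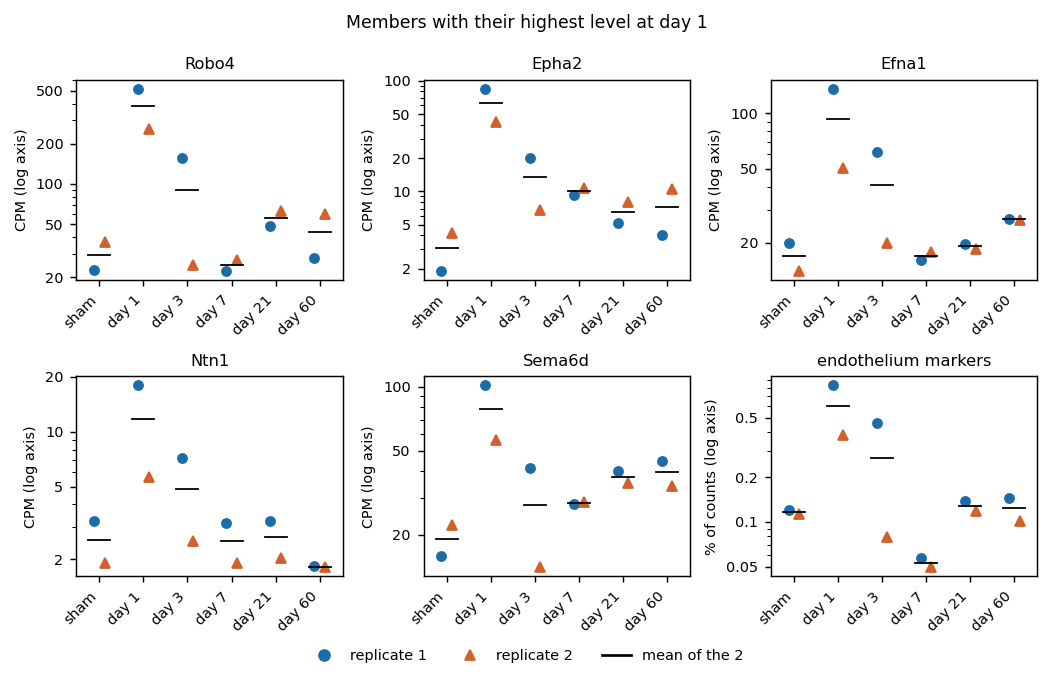
Normalised level (CPM, log axis) of Robo4, Epha2, Efna1, Ntn1 and Sema6d and the summed endothelial marker list (percent of counts, log axis) in each of the 12 libraries. Circles are replicate 1, triangles replicate 2 and bars the mean of both. The group mean is highest on day 1 in each of the 6 panels.

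Robo receptors and their Slit ligands each held members that rose and members that fell. Robo1 (mm10 chr16:72308306-73046095, plus strand), the main Slit receptor, had 6.27 and 5.03 CPM in sham cells, 4.39 and 3.77 on day 1 and 17 and 15.8 on day 3. It had 76.2 and 77 CPM on day 7, 56.9 and 57.7 on day 21 and 27.8 and 44.9 on day 60. The day 1 libraries lay just below sham and those of days 3, 7, 21 and 60 above. Its increases on day 7 (log2FC 3.76 ± 0.35, adjusted p = 6.45e-05), day 21 (log2FC 3.34 ± 0.34, adjusted p = 0.000148) and day 60 (log2FC 2.69 ± 0.34, adjusted p = 0.000425) held in every alternative, and that on day 3 did not (log2FC 1.54 ± 0.32, adjusted p = 0.00611, or 0.0509 to 0.0603 without sham replicate 2 or with the 2 groups alone). Robo2 had 12.2 and 18.1 CPM in sham cells, 1.06 and 3.44 on day 1 and 2.97 and 6.56 on day 3. It had 32.6 and 44.2 CPM on day 7, 28.3 and 27.6 on day 21 and 13.2 and 18.3 on day 60. It fell on day 1 (log2FC -2.72 ± 0.59, adjusted p = 0.00824), in every alternative, and was called on day 3 (log2FC -1.65 ± 0.57, adjusted p = 0.0479, or 0.0569 to 0.215 without sham replicate 1 or 2, day 3 replicate 1, day 7 replicate 1 or 2, day 21 replicate 1 or 2 or day 60 replicate 1 or 2 or with the 2 groups alone or without both day 7 libraries). The day 7 libraries lay above sham (log2FC 1.34 ± 0.56, adjusted p = 0.0765, or 0.0139 with the block). Robo3, a Robo receptor of commissural neurons, had 1.85 and 1.9 CPM in sham cells, 0.0556 and 0.455 on day 1 and 0.886 and 0.712 on day 3. It had 0.134 and 0.26 CPM on day 7, 0.616 and 0.34 on day 21 and 1.89 and 1.39 on day 60. It was lower on day 7 (log2FC -3.16 ± 1.08, adjusted p = 0.0373, or 0.0571 to 0.172 without sham replicate 1 or 2, day 7 replicate 1 or 2 or day 21 replicate 1 or 2), and its day 60 libraries lay near sham.

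Among the ligands, Slit2 had 3.88 and 8.47 CPM in sham cells, 9.06 and 2.83 on day 1 and 8.61 and 6.68 on day 3. It had 34 and 45.7 CPM on day 7, 24.9 and 26.1 on day 21 and 10.9 and 30.1 on day 60. The libraries of days 7, 21 and 60 lay above both sham libraries. It rose on day 7 (log2FC 2.68 ± 0.66, adjusted p = 0.00873, or 0.0716 without sham replicate 1) and day 21 (log2FC 2.04 ± 0.65, adjusted p = 0.0353, or 0.0505 to 0.193 without sham replicate 1 or 2 or day 21 replicate 1 or 2 or without both day 7 libraries). Slit3 had 5.79 and 12.5 CPM in sham cells, 1.06 and 1.85 on day 1 and 3.73 and 4.69 on day 3. It had 5.24 and 5.74 CPM on day 7, 18.2 and 26.9 on day 21 and 13.9 and 21.4 on day 60. It fell on day 1 (log2FC -2.64 ± 0.52, adjusted p = 0.00588), in every alternative, and on day 21 both libraries lay above sham without passing (log2FC 1.3 ± 0.49, adjusted p = 0.0677, or 0.0111 with the block). Slit1 had 6.93 and 16.4 CPM in sham cells, 0.111 and 1.56 on day 1 and 1.58 and 1.55 on day 3. It had 1.68 and 0.874 CPM on day 7, 3.47 and 6.1 on day 21 and 1.2 and 0.457 on day 60. All libraries after stroke lay below both sham libraries. It fell on day 1 (log2FC -3.72 ± 1.06, adjusted p = 0.0243, or 0.0639 to 0.118 without sham replicate 2 or day 1 replicate 1 or with the 2 groups alone) and day 7 (log2FC -3.22 ± 1.04, adjusted p = 0.0303, or 0.0832 to 0.166 without sham replicate 2 or day 7 replicate 1 or 2). The day 60 decrease passed too (log2FC -3.86 ± 1.08, adjusted p = 0.0222, or 0.050 to 0.126 without sham replicate 2 or day 60 replicate 1 or 2).

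Of the 4 netrins and 4 Unc5 receptors, Unc5a was the only member called at more than 1 day in the edgeR test without the block. Unc5a (mm10 chr13:54949411-55006018, plus strand), a repulsive netrin receptor of neurons, had 79 and 125 CPM in sham cells, 3.34 and 16.5 on day 1 and 2.66 and 10.9 on day 3. It had 5.64 and 4.64 CPM on day 7, 23.2 and 27 on day 21 and 11.3 and 26.1 on day 60. All libraries after stroke lay below both sham libraries. Its decreases on day 3 (log2FC -3.9 ± 0.86, adjusted p = 0.00744) and day 7 (log2FC -4.32 ± 0.88, adjusted p = 0.00303) held in every alternative. It was also called on day 1 (log2FC -3.35 ± 0.83, adjusted p = 0.0142, or 0.0598 to 0.0716 without sham replicate 2 or day 1 replicate 1) and day 60 (log2FC -2.45 ± 0.80, adjusted p = 0.0413, or 0.0542 to 0.18 without sham replicate 1 or 2, day 7 replicate 1 or 2, day 21 replicate 1 or 2 or day 60 replicate 1 or 2 or without both day 7 libraries). Day 21 did not pass (log2FC -2.02 ± 0.79, adjusted p = 0.0732), unlike with the block (adjusted p = 0.0155), by DESeq2 (0.0117) or with the 2 groups alone (0.00662). Unc5d had 6.51 and 5.84 CPM in sham cells, 0.278 and 0.808 on day 1 and 1.08 and 0.539 on day 3. It had 0.134 and 0.0093 CPM on day 7, 0.616 and 0.34 on day 21 and 2.01 and 0.189 on day 60. All libraries after stroke lay below sham, and it was called lower on day 7, where it held 3 counts in all (adjusted p = 0.0066, or 0.059 without day 7 replicate 2). Unc5b, a receptor of endothelial cells, had 4.42 and 1.6 CPM in sham cells, 10.6 and 7.76 on day 1 and 8.42 and 2.46 on day 3. It had 15.2 and 10.8 CPM on day 7, 5.6 and 5.2 on day 21 and 5.1 and 3.76 on day 60. It was higher on day 7 (log2FC 2.13 ± 0.68, adjusted p = 0.0288, or 0.0508 to 0.159 without sham replicate 2, day 7 replicate 1 or 2 or day 21 replicate 1). Unc5c had 2.09 and 1.75 CPM in sham cells, 0.945 and 0.975 on day 1 and 4.18 and 1.8 on day 3. It had 4.43 and 2.53 CPM on day 7, 3.53 and 2.01 on day 21 and 6.99 and 2.66 on day 60, and was not called. Ntn3 had 11.2 and 10.5 CPM in sham cells, 4.06 and 3.86 on day 1 and 2.34 and 5.82 on day 3. It had 35.7 and 27.3 CPM on day 7, 12.5 and 8.66 on day 21 and 17.6 and 7.61 on day 60. Its libraries of days 1 and 3 lay below sham and those of day 7 above, and day 7 passed (log2FC 1.53 ± 0.53, adjusted p = 0.0391, or 0.0537 to 0.157 without sham replicate 1 or 2, day 1 replicate 1 or 2, day 7 replicate 1 or 2 or day 21 replicate 1 or 2 or with median-of-ratios scaling). Its exons overlap those of Tbc1d24 on the same strand and of another gene on the opposite strand. Ntn4, a basement membrane netrin with the highest mean of the family, had 20.1 and 31.5 CPM in sham cells, 20.0 and 12.3 on day 1 and 16.7 and 7.39 on day 3. It had 15.3 and 16.5 CPM on day 7, 21.8 and 25.1 on day 21 and 21.3 and 29.1 on day 60. Ntn5 had 3.46 and 12.8 CPM in sham cells, 0.0556 and 3.18 on day 1 and 0 and 3.66 on day 3. It had 2.42 and 5.48 CPM on day 7, 2.07 and 5.27 on day 21 and 2.12 and 3.39 on day 60, the replicate 1 library being the lower in every group. Neither was called.

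Of the 2 members that are not guidance genes, Unc50, a membrane protein of the Golgi, had 28 and 24.5 CPM in sham cells, 75.1 and 45.9 on day 1 and 63.4 and 68 on day 3. It had 55.5 and 72.5 CPM on day 7, 52.4 and 57.3 on day 21 and 84.1 and 80.4 on day 60. All libraries after stroke lay above both sham libraries, and the call on day 60 held in every alternative (log2FC 1.65 ± 0.32, adjusted p = 0.00473). It was also called on day 1 (log2FC 1.2 ± 0.32, adjusted p = 0.0187, or 0.072 to 0.158 without sham replicate 1 or 2 or day 1 replicate 1 or with the 2 groups alone) and day 3 (log2FC 1.33 ± 0.32, adjusted p = 0.0116, or 0.0503 to 0.0775 without sham replicate 1 or 2). Its other calls were on day 7 (log2FC 1.29 ± 0.32, adjusted p = 0.00906, or 0.0627 to 0.0715 without sham replicate 2 or day 7 replicate 2) and day 21 (log2FC 1.07 ± 0.32, adjusted p = 0.0277, or 0.088 to 0.134 without sham replicate 1 or 2 or day 21 replicate 1 or 2). Unc5cl was at 0 to 1.34 CPM across the 12 libraries and was not called. In all, 16 members were not called against sham in the edgeR test without the block, namely Efna5, Epha1, Ephb3, Ntn4, Ntn5, Plxna1, Plxnc1, Plxnd1, Sema3c, Sema3e, Sema3g, Sema4b, Sema4g, Sema7a, Unc5c and Unc5cl. Of these, Sema7a, Ephb3 and Plxnd1 differed among the 6 groups. With the block Ephb3 passed on day 7 (log2FC 1.68 ± 0.71, adjusted p = 0.0809, or 0.00971 with it), Plxnd1 on day 7, Efna5 and Plxnc1 on day 1, and Epha1 on day 21 (adjusted p = 0.0353) and day 60 (0.0241). DESeq2 called Epha1 on the same 2 days (adjusted p = 0.0424 and 0.0498), Plxnc1 and Sema7a on day 1, and Ntn4 on day 3 (0.0366).

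Between neighbouring days most calls lay between day 7 and day 3. Of 70 members, 10 differed between those days, each higher on day 7, beside 6.29% of all genes and 3.06% higher. With their log2 fold changes these were Epha3 (4.49 ± 1.01, adjusted p = 0.0319), Robo2 (2.99 ± 0.59, adjusted p = 0.0225), Ntn3 (2.93 ± 0.56, adjusted p = 0.0199), Sema6c (2.59 ± 0.44, adjusted p = 0.014), Robo1 (2.23 ± 0.33, adjusted p = 0.0115), Plxnb2 (1.98 ± 0.45, adjusted p = 0.0339), Sema4c (1.77 ± 0.43, adjusted p = 0.0409), Plxnd1 (1.74 ± 0.40, adjusted p = 0.0345), Nrp1 (1.59 ± 0.30, adjusted p = 0.0201) and Efnb1 (1.56 ± 0.40, adjusted p = 0.0453). On day 3 against day 1, 1 member differed (3.57% of all genes), which was Robo1. None of these 11 calls passed when only the 2 days compared were fitted, but 0% of all genes passed in those fits, which therefore say nothing about the members. The 10 calls of day 7 against day 3 each also ended when replicate 1 of day 3 or either library of day 7 was left out. Almost none of all genes passed when either day 7 library was left out, so those fits say nothing about the members. Far fewer of all genes than in the main fit passed without replicate 1 of day 3. The Robo1 call of day 3 against day 1 ended without either day 1 library, where fewer of all genes passed too. DESeq2 called 27 members on day 7 against day 3 (all genes 16.5%) and 15 on day 3 against day 1 (9.12%). The replicate block gave 24 (18.2%) and 6 (8.4%). By edgeR 0 members differed on day 21 against day 7 (0.441% of all genes) and 0 on day 60 against day 21 (0%). At an unadjusted p under 0.05 these counts were 11 and 5, beside 2099 and 847 of all 15635 genes. DESeq2 called 4 and 1 members (all genes 6.52% and 0.729%).

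Order of abundance was compared per kilobase of exon. In sham cells the most abundant members were Sema6b at 28.2 CPM per kb, Unc5a at 24.5, Ephb6 at 16.9 and Unc50 at 16.6. On day 7 these were Nrp1 at 61.7, Plxnb2 at 57.7, Unc50 at 40.5 and Efnb1 at 35.4. On day 60 they were Nrp1 at 73.5, Unc50 at 52.1, Efnb1 at 31.2 and Plxnb2 at 29.1 CPM per kb. Sema6b and Unc5a, first in sham cells, stood at 5.6 and 4.48 CPM per kb on day 60.

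Other genes of guidance signalling were counted in 3 lists. Of 12 other ligands, 6 were higher and 2 lower than sham on day 7, beside 23.2% and 19.8% of all genes. Cxcl12, a chemokine that guides neural precursors and interneurons, had 7397 and 4719 CPM on day 60 and 1641 and 1053 CPM on day 7, against 73.9 and 67 CPM in sham cells (log2FC 6.43 ± 0.62, adjusted p = 0.000114 on day 60). Draxin, a secreted repellent that binds Dcc and netrins, had 52.7 and 28.2 CPM on day 21 and 1.95 and 1.4 CPM on day 7, against 0.418 and 0.173 CPM in sham cells (log2FC 7.27 ± 0.85, adjusted p = 0.000292 on day 21). Vegfa, the VEGF ligand of Nrp1, had 289 and 170.2 CPM on day 1, against 27.4 and 35.9 CPM in sham cells (log2FC 2.86 ± 0.43, adjusted p = 0.00214). Flrt2, an adhesion ligand of Unc5 receptors, had 273 and 138 CPM on day 7, against 13.3 and 13 CPM in sham cells (log2FC 3.97 ± 0.53, adjusted p = 0.000342). Each of these 4 calls held in every alternative.

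Of 14 other receptors and co-receptors, 4 were higher and 5 lower on day 7, beside 23.2% and 19.8% of all genes. Neo1, the neogenin receptor of netrins and repulsive guidance molecules, had 315 and 366 CPM on day 7, against 15.1 and 21.7 CPM in sham cells (log2FC 4.21 ± 0.57, adjusted p = 0.000386). Gpc1, a heparan sulfate proteoglycan that binds Slits, had 308 and 253 CPM on day 7, against 64 and 59.7 CPM in sham cells (log2FC 2.18 ± 0.32, adjusted p = 0.000553). Dag1, dystroglycan, had 473 and 285 CPM on day 7, against 39.1 and 47 CPM in sham cells (log2FC 3.14 ± 0.51, adjusted p = 0.00092). Rtn4r, the Nogo receptor of neurons, was lower, with 0.537 and 0.428 CPM on day 7, against 25.3 and 16.1 CPM in sham cells (log2FC -5.44 ± 0.95, adjusted p = 0.00136). Of 46 intracellular effectors, 8 were higher and 12 lower on day 7, beside the same 23.2% and 19.8%. On day 60, 5 were higher and 9 lower, beside 16.8% and 14.8% of all genes. Effectors that fell included Pak1, a kinase downstream of Rac, with 24.7 and 25.8 CPM on day 7, against 272 and 298 CPM in sham cells (log2FC -3.5 ± 0.45, adjusted p = 0.000301). Chn1, a Rac inhibitor downstream of Epha4, had 36.8 and 39 CPM on day 7, against 1163 and 1269 CPM in sham cells (log2FC -5.0 ± 0.63, adjusted p = 0.000274). Ngef, an exchange factor that binds Epha4, had 11 and 8.42 CPM on day 7, against 213 and 257 CPM in sham cells (log2FC -4.6 ± 0.63, adjusted p = 0.000391). Srgap3, a GTPase activator of Slit-Robo signalling, had 9.47 and 7.5 CPM on day 7, against 95.6 and 63.3 CPM in sham cells (log2FC -3.23 ± 0.57, adjusted p = 0.00141). On day 7 the neuron list held 0.0269 and 0.0142% of counts, against 0.848 and 0.988% in sham cells, and its part in these 4 decreases was not tested. Of the calls of these lists at the 5 days, 16 of 30 among ligands, 12 of 29 among receptors and 26 of 73 among effectors held in every alternative.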

How the data were processed

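RNA from sorted astrocytes was sequenced in 12 libraries, 6 groups with 2 replicates each. Per the submitters' processing notes, the build was mm10, and HTSeq 0.6.1 and Bowtie2 2.3.4.2 were among the tools. The annotation and the strand setting are not given in the sources used here. The deposited values are whole-number counts per gene, and all 189288 values of the sample files were identical in the table of the series. Groups and replicate numbers came from the sample titles. The 70 members and the lists were chosen with earlier results of these data known.

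Genes were tested with edgeR 4.0.16 in R 4.3.3, with limma 3.58.1 loaded. Low genes were removed by filterByExpr with a minimum count of 10, leaving 15635 of 15774 genes. Library sizes were scaled by TMM, and 1 quasi-likelihood fit held all 12 libraries and a mean for each group, which left 6 residual degrees of freedom. P-values were adjusted over all 15635 genes by Benjamini and Hochberg, and a gene was called at an adjusted p under 0.05. CPM divided counts by the TMM-scaled library size, and CPM per kb divided them by exon length in GENCODE. Each log2 fold change was divided by the square root of its F statistic to give its standard error. The procedure was also run on simulated data with 200 changed genes. Those libraries were drawn independently and held no shared difference of same-numbered libraries, so that run does not test the calls made here.

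Alternatives were median-of-ratios scaling, DESeq2 1.42.0, no filter, the replicate number as a block, a fit of the 2 groups compared, each library left out, and both day 7 libraries left out, the last chosen after seeing the data. Replicate 1 of every group had the lower depth. Differences between replicates correlated across all genes at 0.319 to 0.713 in all 15 pairs of groups, above the threshold of 0.1 in each, so same-numbered libraries were treated as paired in the block. Over the members alone the correlations were -0.0701 to 0.542, so not every pair of groups showed a shared difference in the members. Exons of 4 members overlap a gene on the same strand and those of 15 a gene on the opposite strand, and such reads could be split. On the opposite strand these are Efna3, Efna4, Epha1, Epha6, Epha10, Ephb1, Ephb4, Ntn3, Ntn5, Plxna1, Plxna4, Plxnb1, Sema4c, Unc5a and Unc5c. Counting error alone puts the limit of a count of 0 at 3 counts per library. In each family values in every library are given for up to 4 members with the smallest p over the 6 groups and for the member with the highest mean CPM. Up to 4 genes of each pathway list are named by the same p.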

Additional observations from a re-analysis of the deposited data

Results flagged for a closer look

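Several members differed between 2 days after stroke in a direct test of that difference. Sema6c, which was below sham at day 1 and above it at day 7, had a log2 fold change of 3.52 at day 7 against day 1. Its adjusted p was 0.00101 by edgeR's quasi-likelihood test, both day 7 libraries lay above both day 1 libraries, and this difference passed in every alternative that could give it.

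For day 7 against day 3 the log2 fold changes were 4.49 in Epha3, 2.99 in Robo2, 2.93 in Ntn3, 2.59 in Sema6c, 2.23 in Robo1, 1.98 in Plxnb2, 1.77 in Sema4c, 1.74 in Plxnd1, 1.59 in Nrp1 and 1.56 in Efnb1. Both day 7 libraries lay above both day 3 libraries in each of these genes. Robo1 also had a log2 fold change of 2.01 at day 3 against day 1, with both day 3 libraries above both day 1 libraries. When only the 2 days were fitted, 0% of all genes passed in either comparison, so those fits say nothing about these genes.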

How the results depend on the processing

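No call changed sign under any alternative that was run. Of 141 calls of members (130 against sham and 11 between neighbouring days), median-of-ratios scaling ended 6 and added 13. Against sham it shifted the log2 fold change of the median gene by -0.152 to -0.104, and between neighbouring days by -0.039 to 0.027. DESeq2 ended 0 and added 74, and leaving out the filter on low counts changed 0. The fits of the 2 groups alone ended 34 and added 26. Leaving out 1 library ended 5 to 60. Without both day 7 libraries 79 of 92 calls remained.

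With the replicate number as a block, 0 calls ended and 60 were added. The counts were then 21 lower at day 1 and 9 lower at day 21 (19.8% and 21.8% of all genes). They were 6 at day 3 against day 1 (8.4%) and 24 at day 7 against day 3 (18.2%). At day 21 against day 7 the count was 1 (4.06%). DESeq2 gave 23 lower at day 1, 20 lower at day 3, 12 lower at day 21, 15 at day 3 against day 1, 27 at day 7 against day 3, 4 at day 21 against day 7 and 1 at day 60 against day 21. The fits of 2 groups alone gave 6 higher at day 3 (13% of all genes) and 11 lower at day 21 (21.2%). They gave 0 at day 3 against day 1 and 0 at day 7 against day 3. At day 21 against day 7 they gave 1 (2.34%). In the fits of day 3 with day 1 and of day 7 with day 3, 0% of all genes passed. Without both day 7 libraries 28 members differed among the groups left. The causes were not tested.

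With each library left out in turn, the members higher than sham ranged from 5 to 15 at day 1, 5 to 13 at day 3, 15 to 26 at day 7 and 8 to 18 at day 21. Those lower ranged from 2 to 16 at day 1, 4 to 15 at day 3, 8 to 16 at day 7, 1 to 8 at day 21 and 4 to 11 at day 60. Counts ranged from 0 to 8 at day 3 against day 1, 0 to 13 at day 7 against day 3 and 30 to 51 among the 6 groups. The shares of all genes called against sham varied between these fits as well. A group left with 1 library was assumed to vary like the others. Having 2 libraries a group limits all calls, and members with few counts, such as Epha6, Epha8 and Unc5d at day 7, have the least precise values.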
